A study of Homo sapiens with 6 samples.

Results

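HMOX1, which encodes the inducible haem oxygenase, was followed here with 5 further antioxidant enzymes under the transcription factor NRF2 and with 3 regulators of that pathway. The enzymes were NQO1, GCLC, GCLM, TXNRD1 and SRXN1, and the regulators were NFE2L2 (the NRF2 gene itself), KEAP1 and BACH1. Members were taken by gene symbol from the platform annotation, and all 9 genes were found, with 12 probes of the 28264 in the table and 9 of 19090 named genes. BACH1 had 3 probes, NFE2L2 had 2 and each other member had 1. Unless stated otherwise, a gene with several probes is represented below by its brightest, and the other probes are given beside it.

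NRF2 is held in the cytoplasm by KEAP1, an adaptor of a CUL3 ubiquitin ligase that sends it to the proteasome. Oxidants and electrophiles modify cysteines of KEAP1, and NRF2 then accumulates, pairs with a small MAF protein and binds antioxidant response elements of genes for glutathione synthesis, thioredoxin recycling and quinone reduction. BACH1 occupies related elements as a repressor and leaves them when it binds haem, and HMOX1 is a well-known BACH1 target that breaks haem down to biliverdin, iron and carbon monoxide. In liver this programme is known for protection against reactive metabolites.

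The 6 single-colour Cy3 arrays came from cells labelled Hep3B, an established human hepatocellular carcinoma line, grown in DMEM with 10% FBS. The cells of 3 arrays were labelled as transfected with a vector, named GFP in the sample titles, and those of the other 3 as transfected with CCN5, a secreted matricellular protein also called WISP2. The labels give no time after transfection and do not say whether replicates came from separate cultures, so p-values cover only the variation among these arrays, and that variation could be technical. Untransfected cells are not analysed here, and higher or lower below means the arrays labelled CCN5 relative to those labelled vector.

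Array medians lay between 504 and 600. The CCN5 probe, at a log2 difference of -0.34 (SE 0.09; limma adjusted p = 0.151), read 835, 836 and 880.3 for the vector label and 673, 672 and 619 for the CCN5 label, so the arrays labelled CCN5 were the lower ones. Whether the probe lies within the transfected sequence is not known here, and the direction of every comparison rests on the labels. The hepatocyte markers went against the cell line label. Of 19 analysed hepatocyte and hepatoma markers 16 lay below the 50th percentile of probe signal, with the fetal liver protein AFP at percentile 26.7 and albumin (ALB) at 12.2, and only CEBPA, APOC3 and FOXA2 lay above it. Of 12 squamous epithelial markers 11 lay above it, among them KRT5 at percentile 98.4 and SFN at 98.0. RNA was extracted from whole cultures, so fewer cells of a type and less RNA per cell cannot be told apart. Percentiles rank probes that differ in how well they bind, so they describe the arrays and do not measure one transcript against another.

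**Figure D1:**
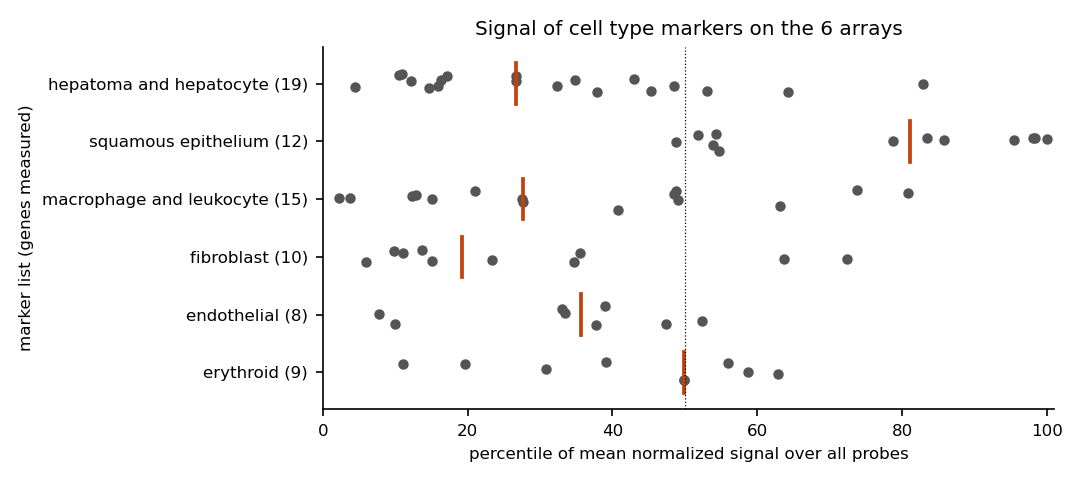
Percentile of mean normalized signal over all 28264 probes (x axis) for each gene of 6 marker lists (rows, with the number of genes analysed). Each point is the brightest probe of a gene over the 6 arrays, the upright bar is the list's median, and the dotted line marks percentile 50. The hepatoma and hepatocyte list has its median at 26.7 and the squamous list at 81.1.

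Promoter sequences from RefSeq (GRCh38.p14, 250 bases before to 50 after a start) were at hand for 8 of the 9 members, and HMOX1 was the exception. The core of the antioxidant response element, TGACNNNGC, was searched on both strands. It can overlap the AP-1 heptamer TGACTCA, which was searched too and found in 4.95% of all promoters and in a single member, BACH1. The core was found for GCLM, TXNRD1 and KEAP1, in 4 of 13 member promoters and in 13.3% of all 35116 promoters. Shown are the GCLM promoter (chr1:93909381-93909680, minus strand), the promoter of the downstream TXNRD1 start (chr12:104286782-104287081, plus strand) and one KEAP1 promoter (chr19:10502722-10503021, minus strand), because they hold the core, and the SRXN1 promoter (chr20:653151-653450, minus strand), because SRXN1 follows HMOX1 in the results below. Capitals mark each match, read 5′ to 3′ along the gene.
GCLM: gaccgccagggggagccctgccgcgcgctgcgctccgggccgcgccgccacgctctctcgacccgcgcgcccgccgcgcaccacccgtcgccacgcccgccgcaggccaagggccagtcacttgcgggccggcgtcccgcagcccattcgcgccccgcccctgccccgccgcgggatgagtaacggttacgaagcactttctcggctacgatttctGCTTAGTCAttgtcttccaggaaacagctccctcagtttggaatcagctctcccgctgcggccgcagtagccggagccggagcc
TXNRD1: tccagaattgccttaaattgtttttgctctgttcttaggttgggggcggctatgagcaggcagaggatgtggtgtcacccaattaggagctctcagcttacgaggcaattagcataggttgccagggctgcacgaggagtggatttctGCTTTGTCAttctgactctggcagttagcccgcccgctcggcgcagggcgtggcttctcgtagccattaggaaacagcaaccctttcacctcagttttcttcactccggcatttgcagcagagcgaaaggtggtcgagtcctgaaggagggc
KEAP1: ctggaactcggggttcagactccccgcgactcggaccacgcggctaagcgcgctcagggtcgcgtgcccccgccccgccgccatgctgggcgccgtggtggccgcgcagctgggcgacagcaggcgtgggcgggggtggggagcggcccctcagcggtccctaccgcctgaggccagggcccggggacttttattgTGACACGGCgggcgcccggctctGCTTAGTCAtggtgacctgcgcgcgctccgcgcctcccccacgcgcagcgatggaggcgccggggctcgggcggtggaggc
SRXN1: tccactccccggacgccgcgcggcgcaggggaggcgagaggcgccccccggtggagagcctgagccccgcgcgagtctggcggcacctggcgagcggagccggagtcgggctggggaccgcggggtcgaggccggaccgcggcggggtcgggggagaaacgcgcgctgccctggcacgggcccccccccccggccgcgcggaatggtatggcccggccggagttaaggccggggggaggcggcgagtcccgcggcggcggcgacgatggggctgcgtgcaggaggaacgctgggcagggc
The GCLM and KEAP1 promoters carried the same 9 letters, GCTTAGTCA, beginning 34 and 31 bases before the start, and KEAP1 also held TGACACGGC beginning 54 bases before it. The TXNRD1 promoter carried GCTTTGTCA beginning 102 bases before its start, and the other TXNRD1 start, not printed, held 2 matches. SRXN1 had no match in its window, as had NQO1, GCLC, NFE2L2 and BACH1. A match describes letters and shows no binding.

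HMOX1 gave the largest difference among the 9 genes. Its deposited intensities were 6236, 4953 and 6112 for the vector label (replicates 1 to 3) and 8207, 10404 and 10700.3 for the CCN5 label. All 3 arrays labelled CCN5 lay above all 3 labelled vector, and the lowest of them, replicate 1, was still above the highest vector array. Higher without overlap were 11.8% of all probes, and 2278 of the 14132 probes above the median signal. The mean intensity was 5767 ± 708 (SD, n = 3) with the vector label and 9770.3 ± 1362 (SD, n = 3) with the CCN5 label. After normalization HMOX1 was higher by 0.75 on the log2 scale, or 1.68-fold, with an SE of 0.14 and a 95% interval from 0.40 to 1.09. It did not pass limma's test over all probes (adjusted p = 0.108). The exact two-sided permutation p was 0.1, which is the smallest that 3 arrays against 3 can give. A larger positive difference was found for 1.39% of all probes and for 0.439% of the probes above the median signal, to which HMOX1 belongs at percentile 88.3.

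Whether HMOX1 passed depended on the treatment of dim probes and on the variance model. It passed with log2(value + 50) (adjusted p = 0.0487), without the dimmest 50% of probes (0.0223) and with a trended, robust variance (0.0287), and missed the threshold in the other 13 settings. Over all settings the adjusted p ranged from 0.0223 to 0.416. Those 3 settings called 0.283%, 3.06% and 0.665% of probes higher. The log2 difference stayed between 0.65, without vector replicate 2, and 0.87, without CCN5 replicate 1.

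Macrophages are a rich source of haem oxygenase in tissue, and a list of leukocyte genes was therefore read on the same arrays. Of 15 macrophage and leukocyte markers 11 were lower and 4 higher, with a median log2 difference of -0.21, and 12 lay below the 50th percentile of signal. The median was -0.06 as deposited, -0.02 with median centring (7 higher and 8 lower) and -0.02 without CCN5 replicate 2 (6 higher). Their summed intensity was 10396 to 11512 on the arrays labelled vector and 7732 to 10871 on those labelled CCN5. Of the list, 1 marker was under an intensity of 1 on some array and 0 were so on all arrays. The part of such cells in the HMOX1 signal was not tested.

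SRXN1, which encodes sulfiredoxin, the enzyme that returns overoxidised peroxiredoxins to work, came second. Its intensities were 21275, 18338 and 18116 for the vector label and 24603, 25909.8 and 27971 for the CCN5 label. The labels did not overlap, with means of 19243 ± 1763 and 26161 ± 1698 (SD, n = 3 each). The normalized log2 difference was 0.40 (SE 0.09, 95% interval 0.17 to 0.62), or 1.32-fold, with an adjusted p of 0.138 by limma and an exact permutation p of 0.1. The adjusted p ranged from 0.0390 to 0.449 over the settings and was under 0.05 without the dimmest 50% of probes (0.0390) and with a trended, robust variance (0.0456). Across the 6 arrays SRXN1 followed HMOX1 with a Pearson r of 0.93, given as a description because the arrays form 2 labelled groups.

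TXNRD1, the cytosolic thioredoxin reductase, was the brightest member, at percentile 99.0, and its labels overlapped. Its intensities were 69413, 59915 and 69088 with the vector label and 63156, 84144 and 80916 with the CCN5 label. CCN5 replicates 2 and 3 lay above every vector array, while CCN5 replicate 1 lay below vector replicates 1 and 3. The log2 difference was 0.12 (SE 0.13, 95% interval -0.19 to 0.43; limma adjusted p = 0.642), and it was 0.04 without CCN5 replicate 2 and 0.23 without CCN5 replicate 1.

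GCLM and GCLC encode the modifier and the catalytic subunit of glutamate-cysteine ligase, the rate-limiting enzyme of glutathione synthesis. GCLM read 5501, 4959 and 4200.0 with the vector label and 5165, 5960.2 and 5579 with the CCN5 label. Only CCN5 replicate 1 fell inside the range of the vector arrays, and the log2 difference was 0.19 (SE 0.13, 95% interval -0.12 to 0.49; limma adjusted p = 0.464). It was 0.08 without vector replicate 3 and 0.28 without vector replicate 1. GCLC was the least reproducible member. It read 923, 604 and 1853 with the vector label and 1536, 737 and 969 with the CCN5 label, a 3.07-fold spread between its lowest and highest array. Vector replicates 2 and 3 held both the lowest and the highest value. The log2 difference was 0.08 with an interval from -0.98 to 1.13, the widest of the members, and the sign turned without vector replicate 2 (-0.31) or CCN5 replicate 1 (-0.17).

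NQO1, the quinone reductase often used as a readout of NRF2, was dim here, at percentile 16.6. It read 47.8, 90.5 and 73.4 with the vector label and 91.0, 69.9 and 71.5 with the CCN5 label. The labels overlapped, and the log2 difference was 0.02 (SE 0.11, 95% interval -0.24 to 0.27; limma adjusted p = 0.947). No detection flags were used, so it is unknown whether the probe stood above background, and the sign of its difference turned in 4 of 13 other settings.

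**Figure D2:**
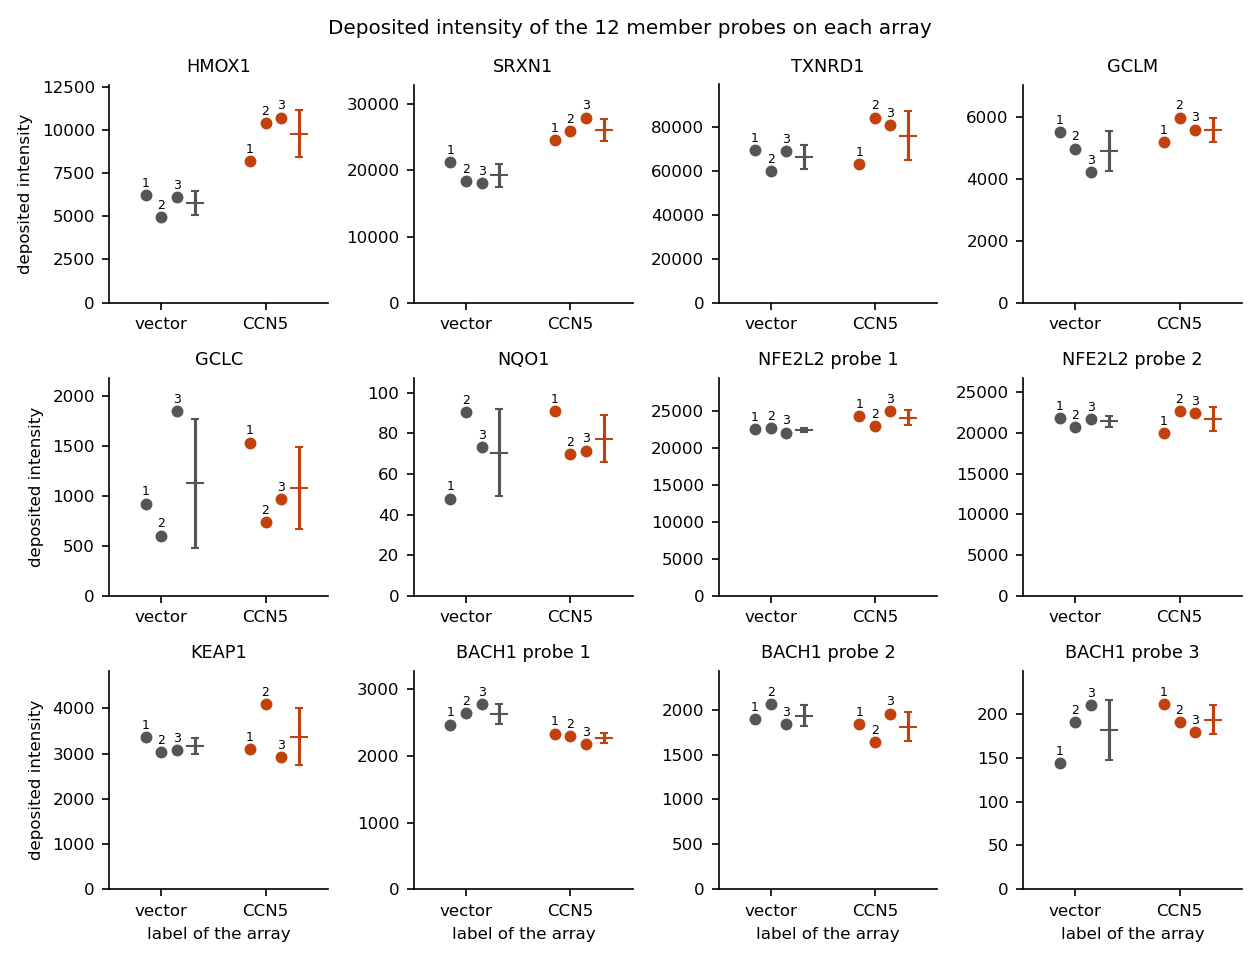
Deposited intensity on a linear axis starting at 0 (y) for each of the 12 member probes, by the label of the array (x). Numbered points are the replicates and the bar beside them is the mean with its SD (n = 3). HMOX1, SRXN1, NFE2L2 probe 1 and BACH1 probe 1 show no overlap between labels as deposited. GCLC spreads widely within both labels, and NQO1 more within the vector label than within the CCN5 label.

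The transcript of NRF2 itself differed little. The brighter NFE2L2 probe read 22446, 22575 and 22021 with the vector label and 24257, 22918 and 24936 with the CCN5 label. The deposited values did not overlap, but after quantile normalization CCN5 replicate 2 lay inside the vector range. The log2 difference was 0.07 (SE 0.09, 95% interval -0.13 to 0.28; limma adjusted p = 0.689). The second probe, nearly as bright, stood at -0.03, with vector intensities of 21809.7, 20664 and 21688 and CCN5 intensities of 19934, 22675 and 22408. NRF2 is controlled largely through the stability of its protein, which arrays do not measure.

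KEAP1 read 3366, 3037 and 3082 with the vector label and 3104, 4093 and 2926 with the CCN5 label. CCN5 replicates 2 and 3 held the highest and the lowest value, and the log2 difference of 0.08 (SE 0.14; limma adjusted p = 0.792) became -0.06 without CCN5 replicate 2. For BACH1 the brightest probe read 2470.5, 2643 and 2777 with the vector label and 2336, 2294 and 2182 with the CCN5 label. Here the arrays labelled CCN5 were the lower ones without overlap, as deposited and as normalized. The log2 difference was -0.20 (SE 0.08, 95% interval -0.40 to 0.00; limma adjusted p = 0.268; exact permutation p = 0.1). The other BACH1 probes did not repeat it. The second read 1898, 2063 and 1842 against 1839.8, 1637 and 1958, a log2 difference of -0.08, and the third, at percentile 32.2, stood at 0.12, so that the mean of the 3 probes differed by -0.05 (adjusted p = 0.740).

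**Figure D3:**
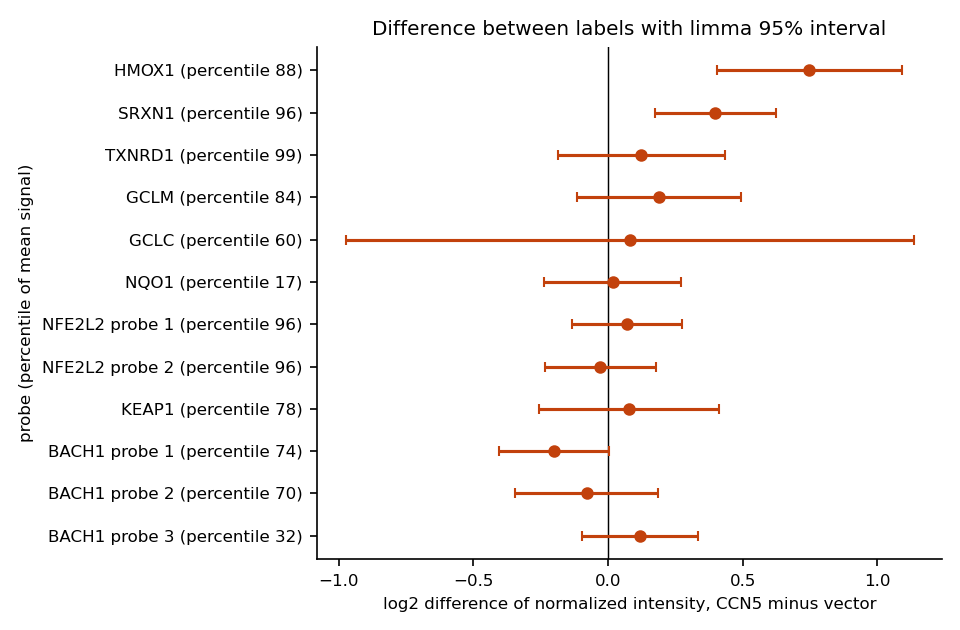
Log2 difference of normalized intensity, CCN5 minus vector (x axis), for each member probe (rows, with its percentile of mean signal). Points are limma estimates over 3 arrays per label and bars their 95% intervals. The intervals of HMOX1 (0.40 to 1.09) and SRXN1 (0.17 to 0.62) lie above 0 before any correction for the number of probes, and that of GCLC is the widest.

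Taken over the 9 genes, 8 were higher and 1, BACH1, lower, with a median log2 difference of 0.08 against -0.01 for all genes, of which 48.1% were higher and 51.9% lower. With limma 0 members passed an adjusted p of 0.05, as did 0.0% of all 28264 probes. At an unadjusted p under 0.05 the members counted 2 higher (HMOX1 and SRXN1) and 0 lower, against 8.58% of all genes higher and 11.2% lower. Arrays of the labels did not overlap for 2 of the 12 member probes that were higher and 1 that was lower, where 11.8% and 14.8% of all probes did so. Among the 14132 probes above the median signal, to which these members belong, 2278 were higher and 2603 lower without overlap. The number of higher members was 6 to 8 over the settings, and the signs of NQO1, GCLC and KEAP1 were not stable. Dropping the dimmest 25% or 50% of probes left out NQO1, with 7 of 8 members higher. The members with a promoter match were GCLM, TXNRD1 and KEAP1, with differences of 0.19, 0.12 and 0.08, none past the test. HMOX1 had no promoter to search, and sites outside the windows were not searched, so a missing match does not show a missing element.

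**Figure D4:**
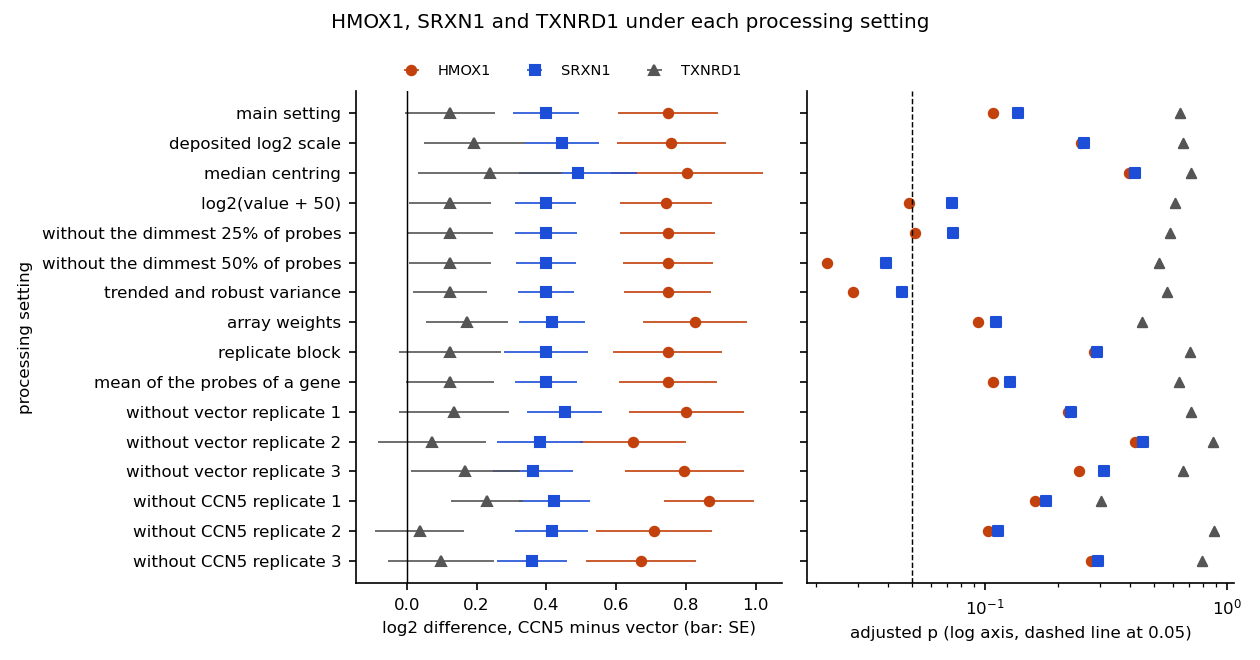
Log2 difference with its SE (left, x axis) and limma adjusted p (right, log x axis, dashed line at 0.05) of HMOX1, SRXN1 and TXNRD1 under each processing setting (rows). HMOX1 stays between 0.65 and 0.87 and its adjusted p between 0.0223 and 0.416, while TXNRD1 lies at 0.04 to 0.24.

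Other genes of the NRF2 pathway stood on both sides of 0. Over 7 lists with 103 analysed genes besides the members, 38 were higher and 65 lower, with a median of -0.05. At an unadjusted limma p under 0.05, 7 were higher (6.80%) and 16 lower (15.5%), where 8.58% of all genes were higher and 11.2% lower. Of the 103 genes 90 lay above the median probe signal. Among the 14132 probes there, 1522 were higher and 1686 lower at that p. With limma's test over all probes 0 of the 103 genes passed. After median centring, which moved the median of all probes to 0.08, the split was 48 higher and 55 lower, with 8 and 8 among partners and adaptors, 7 and 6 for glutathione, and 7 and 7 for both thioredoxin and haem, and 4 and 6 for NADPH. Leaving out 1 array gave 35 to 43 higher.

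Among the partners and adaptors of NRF2, 6 of 16 genes were higher and 10 lower. CAND1, the exchange factor of cullin ligases, stood at 0.55 (SE 0.15), and SQSTM1, the autophagy receptor p62 that competes for KEAP1, at 0.26 (SE 0.10). SQSTM1 read 13394, 12913 and 15006 with the vector label and 17777, 16712 and 16248 with the CCN5 label, without overlap. The small MAF genes went apart, with MAFG at 0.23 (SE 0.09; a second probe at -0.00078) and MAFF, at percentile 32.1, at -0.52 (SE 0.18; -0.32 without CCN5 replicate 1). Adjusted p-values of these 4 genes by limma were 0.157 to 0.266.

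Of the further NRF2 targets 9 of 16 were higher and 7 lower. OSGIN1, an oxidative-stress-induced growth inhibitor, read 3731, 3700.2 and 3764 with the vector label and 6059.8, 4498 and 5632 with the CCN5 label. All CCN5 arrays lay above all vector arrays, and the log2 difference was 0.53 (SE 0.13; limma adjusted p = 0.145). TRIM16, an E3 ligase whose close copy TRIM16L may share its probe signal, stood at 0.41 (SE 0.12), and TRIM16L at -0.11 (SE 0.10). SPP1, the secreted phosphoprotein osteopontin, stood at -0.47 (SE 0.13) and the iron-binding nuclear protein PIR at -0.25 (SE 0.10).

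Around haem and iron 6 of 14 genes were higher and 8 lower. BLVRA, which reduces the biliverdin that haem oxygenase makes, read 12528, 11813 and 11607.5 with the vector label and 8385, 9738 and 8349 with the CCN5 label. The arrays labelled CCN5 were thus the lower ones, opposite to HMOX1, at a log2 difference of -0.47 (SE 0.09; limma adjusted p = 0.119). The second biliverdin reductase BLVRB stood at -0.24 (SE 0.11) and the constitutive haem oxygenase HMOX2 at -0.26 (SE 0.09), with a second HMOX2 probe at -0.08. The haem exporter FLVCR1 stood at 0.34 (SE 0.09), with a second probe at 0.01.

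Glutathione, thioredoxin and NADPH genes were mixed. Of 13 glutathione genes 5 were higher, with glutathione reductase GSR at 0.40 (SE 0.10), and 8 lower, with the lipid peroxide reductase GPX4 at -0.32 (SE 0.08), the peroxidase GPX1 at -0.26 (SE 0.10) and the glutaredoxin GLRX at -0.50 (SE 0.14; a second probe at 0.17). GSR read 4968, 4676 and 5449.9 with the vector label and 6061, 6935 and 6941 with the CCN5 label, again without overlap. Of 14 thioredoxin and peroxiredoxin genes 5 were higher and 9 lower. TXNIP, the thioredoxin-binding protein that restrains it, gave the largest difference of the 7 lists at -0.83 (SE 0.16; limma adjusted p = 0.109), from 11005, 15125 and 14445 with the vector label to 8382, 7179 and 7368.5 with the CCN5 label. TXNL1 (0.22), TXN2 (-0.25, a second probe at -0.03) and PRDX6 (0.21) were smaller. In NADPH supply 2 of 10 genes were higher and 8 lower, with IDH1 at -0.37 (SE 0.11; a second probe at -0.19), PGD at -0.19, IDH2 at -0.22 and TKT at -0.18. Leaving out 1 array brought PGD to -0.11 (CCN5 replicate 3), IDH2 to -0.15 (vector replicate 2) and TKT to -0.11 (CCN5 replicate 1), and median centring brought TKT to -0.07. That centring also moved TXN2 to -0.15, GPX4 to -0.21 and BLVRB to -0.13.

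Quinone and carbonyl detoxification held 7 higher and 15 lower genes of 22. GSTA4, a glutathione transferase for lipid aldehydes, read 2149, 2482 and 2612 with the vector label and 1492, 1279.5 and 1378 with the CCN5 label. The labels did not overlap, and its log2 difference was -0.79 (SE 0.11; limma adjusted p = 0.0969). The aldo-keto reductases AKR1B10 at -0.51 (SE 0.12) and AKR1C1 at -0.35 (SE 0.12; a second probe at -0.43) and the glucuronosyltransferase UGT1A6 at -0.42 (SE 0.15; a second probe at -0.14) stood on the same side. AKR1C1 and UGT1A6 share sequence with close relatives, so their probes may not tell them apart, and AKR1C1 was -0.23 with median centring. Its relatives AKR1C2, at percentile 39.5, and AKR1C3 stood above 0, at 0.27 (SE 0.17) and 0.04 (SE 0.16). Some of the pathway genes named here passed in other settings: GSTA4 in 4, TXNIP in 3, BLVRA and GPX4 in 2 each, and CAND1, GSR, OSGIN1, SPP1 and AKR1B10 in 1, without the dimmest 50% of probes.

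**Figure D5:**
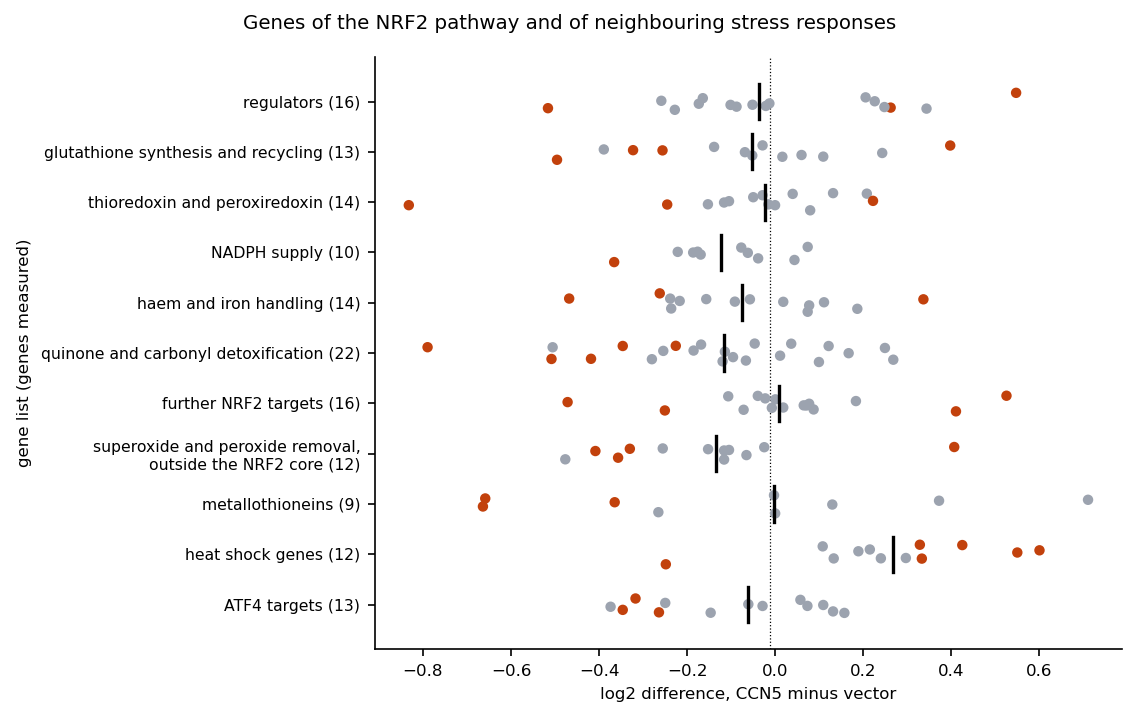
Log2 difference, CCN5 minus vector (x axis), of each analysed gene besides the members in 11 gene lists (rows, with the number of genes). Coloured points have an unadjusted limma p under 0.05, short upright bars are list medians, and the dotted line is the median of all genes (-0.01). The 7 upper lists spread to both sides of 0, and the heat shock list has its median at 0.27.

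The genes whose 6 normalized values followed HMOX1 most closely were MCM10 (Pearson r 0.995), GNL3L (0.994), PYGL (0.993), FAM83D (0.992) and RBL1 (0.990), among 10559 other named genes above the median probe signal. MCM10, a DNA replication factor, read 1189, 1023 and 1152 with the vector label and 1523, 1797 and 1799 with the CCN5 label, so that vector replicate 2 was the lowest array and CCN5 replicate 1 the lowest of its label, as for HMOX1. The most opposite were RIPOR1 (-0.997), TMC4 (-0.989), TNFRSF21 (-0.988), GCA (-0.986) and MIR205HG (-0.986). Each gene was represented here by its probe of highest r, also for the most opposite genes. The r are given as a description, because the 6 arrays form 2 labelled groups. An r above 0.9 was reached by 575 genes, a bound below the highest values named, and strongly negative r were not counted.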

How the data were processed

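Cells labelled Hep3B were profiled on 6 single-colour arrays. Per the labels' protocols, RNA was primed with T7 oligo(dT), amplified as antisense RNA and dye-labelled. The authors deposited 1 linear intensity per probe and array; the sources used here do not give the scanner, background correction or scaling. Intensities under 1 (5.35% of probes on vector replicate 1, under 0.1% elsewhere) were set to 1, and log2 values were quantile normalized. A two-sided moderated test of CCN5 minus vector, without covariates, was run on all 28264 probes (lmFit and eBayes of limma 3.58.1, R 4.3.3). P-values were adjusted by Benjamini-Hochberg over the whole table, and 0.05 was the threshold. The platform annotation named 25893 probes with 1 symbol, 0 with several, and left 2371 unnamed. Genes were represented by their brightest probe, except in the search for genes that follow HMOX1. There each gene was represented by its probe of highest r among the probes above the median signal.

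Members and lists were chosen with earlier results of these data known, so no p over a list is given. Named were all members, up to 4 genes of smallest p per pathway list, fixed markers and the brightest markers per list, and the 5 genes most like and most unlike HMOX1 (Pearson r). AKR1C2, AKR1C3 and TRIM16L were added as measured relatives of named genes. KRT14, KRT16, IVL and PKP1 were added after their values were seen, and FOXA2 was named for its percentile only. Other settings changed the scale (log2 as deposited, median-centred, or log2(value + 50)), dropped the dimmest 25% or 50% of probes, used a trended robust variance, weighted the arrays, blocked on replicate number, averaged a gene's probes, or left out each array in turn. The procedure was tested on simulated data with planted changes larger than that of any member. Such a test cannot show how often differences as small as those of the members are found. The number of arrays limits the precision. Figures were drawn with matplotlib 3.10.9.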

Additional observations from a re-analysis of the deposited data

How the results depend on the processing

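HMOX1, SRXN1, TXNRD1, GCLM, NFE2L2, BACH1 and CCN5 kept their direction in all 15 other settings. Probes higher and lower numbered 80 and 225 with log2(value + 50), 33 and 151 without the dimmest 25% of probes, 432 and 567 without the dimmest 50%, and 188 and 336 with a trended, robust variance, against 0 and 0 as reported; without 1 array they numbered 0 higher and 0 to 1 lower. Members past the threshold numbered 1 with log2(value + 50) (HMOX1, 0.74), 2 without the dimmest 50% (HMOX1 at 0.75, SRXN1 at 0.40) and 2 with the trended variance (HMOX1 at 0.75, SRXN1 at 0.40), and 0 elsewhere. CCN5 passed without the dimmest 50% (-0.34). That setting tested 14132 probes and also fitted the variance model to them alone. The SE of HMOX1 was 0.13 there, against 0.14 in the main setting. The cause of the added calls was not tested. Leaving out 1 array gave 0.65 to 0.87 for HMOX1 and -0.38 to -0.30 for CCN5. The sign turned for GCLC without vector replicate 2 or CCN5 replicate 1 (range without 1 array -0.31 to 0.51), for KEAP1 without CCN5 replicate 2 (-0.059 to 0.16), and for NQO1 with array weights (-0.015) and without vector replicate 3, CCN5 replicate 1 or CCN5 replicate 2 (-0.056 to 0.079). The cause was not tested. NQO1 was left out with the dim probes. The replicate block gave 0 probes higher, 0 lower, 0 members past the threshold, 0.75 for HMOX1 (adjusted p = 0.281) and -0.34 for CCN5. It could lose no call, since 0 probes passed as reported. Deviations of same-numbered arrays correlated at -0.075, 0.16 and -0.027. Arrays of different numbers were not compared, so these values cannot decide whether the numbers pair the samples.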

Other observations

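Stress responses that neighbour NRF2 were described from lists chosen with earlier results known. Of 12 heat shock genes 11 were higher in the arrays labelled CCN5 and 1 lower, with a median log2 difference of 0.27, and the split was the same on the deposited, the median-centred and the log2(value + 50) scale. At an unadjusted p under 0.05, 5 were higher and 1 lower, where 8.58% of all genes were higher and 11.2% lower at that p, and 0 passed limma's test over all probes. Of all genes 48.1% were higher in direction. The inducible chaperone HSPA1A, whose near-identical copy HSPA1B may share its signal, stood at 0.55 (SE 0.10), its partner DNAJA1 at 0.60 (SE 0.11), HSPA8 at 0.43 (SE 0.11; a second probe at 0.39) and the mitochondrial co-chaperonin HSPE1 at 0.33 (SE 0.09; other probes at 0.19 and 0.86). DNAJA1 read 9287, 8316 and 8577 with the vector label and 14914, 12380.3 and 13112 with the CCN5 label, without overlap.

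A list for superoxide and peroxide removal, which shares PRDX2 and PRDX4 with the thioredoxin and peroxiredoxin list, held 1 higher and 11 lower genes of 12, with a median of -0.13; with median centring 3 were higher and 9 lower. Catalase (CAT) stood at -0.33 (SE 0.10), the mitochondrial dismutase SOD2 at -0.41 (SE 0.13; a second probe at -0.06), the extracellular dismutase SOD3 at -0.36 (SE 0.14; -0.23 without CCN5 replicate 1) and GPX8 at 0.41 (SE 0.16). Of 9 metallothionein and zinc genes 4 were higher and 5 lower, with MT1X at -0.66 (SE 0.10), MT1F at -0.66 (SE 0.17), MT1B at -0.36 (SE 0.09) and MT1M, at percentile 23.2, at 0.71 (SE 0.31; 0.44 without vector replicate 2); metallothionein probes may share signal. Of 13 ATF4 targets 5 were higher and 8 lower, with PHGDH at -0.26, DDIT3 at -0.32, ATF3 at -0.35 and DDIT4 at -0.25 (-0.16 without CCN5 replicate 2). The ATF4 split turned with the scale, to 7 higher and 6 lower as deposited and to 8 and 5 with median centring. None of the stress genes named here passed limma's test as reported. In other settings MT1X passed in 4, HSPA1A and DNAJA1 in 3 each, HSPE1 in 2, and HSPA8 and MT1F in 1.

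Other marker lists had medians of -0.04 for 10 fibroblast genes, -0.08 for 8 endothelial genes, -0.06 for 9 erythroid genes, -0.03 for 19 hepatocyte genes and -0.09 for 12 squamous genes. The fibroblast median was 0.09 as deposited and 0.13 with median centring, and the hepatocyte median 0.05 and 0.09. ALB stood at -0.46 (SE 0.13), with -0.13 as deposited and -0.08 with median centring. AFP stood at -0.46 (SE 0.19), CD68 at -0.41 (SE 0.09) and LUM at -0.55 (SE 0.12). A second LUM probe, dim at percentile 8.4, stood at 0.68 with an SE of 1.05. Of the 12 squamous markers 5 were higher and 7 lower. KRT5 stood at 0.40 (SE 0.17) with overlapping labels. S100A2, the brightest, stood at -0.03 (SE 0.08), at 0.06 as deposited and at 0.10 with median centring. KRT14 at -0.62 (SE 0.11), KRT16 at -0.51 (SE 0.11), IVL at -0.29 (SE 0.12) and PKP1 at -0.16 (SE 0.08), chosen after their values were seen, were lower without overlap. So were 14.8% of all probes and 2603 of the 14132 above the median signal. CD68 and LUM passed in 2 other settings each. Of the other brightest markers of the lists, CEBPA stood at 0.10 (SE 0.12), APOC3 at 0.10 (SE 0.10) and SFN at -0.19 (SE 0.13). CD74 stood at -0.04 (SE 0.24), with a second probe at -0.61, and VWF at -0.01 (SE 0.17). The signs of CD74 and VWF turned in some settings. HBB stood at -0.24 (SE 0.14), PECAM1 at -0.39 (SE 0.10) and GATA1 at -0.50 (SE 0.17). COL1A1, at 0.79 (SE 0.70), was -0.09 without vector replicate 3.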
